A study of Oryza sativa with 9 samples.

Results

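HKT proteins carry sodium, and in some members also potassium, across plant membranes. Class I members are selective for sodium, while class II members of grasses can carry both ions. In roots they contribute to sodium entry from outside and to how much of it is left in the xylem sap that rises to the shoot. The 5 HKT loci described here are a fixed set of members of the rice family, given by name and locus number, out of 57931 features in the deposited expression table: HKT1;1 (LOC_Os04g51820) and HKT1;4 (LOC_Os04g51830) on chromosome 4, HKT1;3 (LOC_Os02g07830) on chromosome 2, HKT1;5 (LOC_Os01g20160) on chromosome 1 and HKT2;1 (LOC_Os06g48810) on chromosome 6. All 5 were found in the table. The RefSeq gene table names 7 HKT genes, so the set is not the whole family.

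Root RNA was sequenced from Sea Rice 86 (SR86) grown in sea water (SW), from SR86 in fresh water (FW) and from the common rice R1 in FW, with 3 biological replicates each, harvested 1 month after planting. SR86 is a salt-tolerant cultivar of wild coastal origin, and R1, of mixed japonica and indica descent, is salt-sensitive and dies in sea water. Each strain is 1 cultivar. The labels give both as japonica, whereas the paper places SR86 with indica. A sentence of the methods also exchanges which strain was grown in both waters, and the labels were followed. The samples include no R1 library in SW, so the response to SW could not be compared between strains. Libraries are called SR86 SW1 to SW3, SR86 FW1 to FW3 and R1 FW1 to FW3, and 3 values of a group are in that order.

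Expression is given in FPKM, read fragments scaled by transcript length and by the mapped fragments of the library, so levels can be compared between loci of a library. Differences of log2(FPKM + 0.5) were tested with limma in 1 fit per comparison, which took in every locus whose 6 libraries averaged 0.5 FPKM or more. Loci that passed both an adjusted p of 0.05 (Benjamini-Hochberg) and a 2-fold difference are named as called. The table holds no read depth of single libraries, and the study gives only an approximate read number common to all samples. Features above 0 numbered 31375 to 31971 in SR86 SW, 28684 to 29780 in SR86 FW and 29273 to 30682 in R1. Log2 values correlated across loci between replicates at 0.943 to 0.965 in SR86 SW, 0.926 to 0.957 in SR86 FW and 0.983 to 0.994 in R1 FW. Summed values of features named LOC_Osm1 were 243.8 to 567.5 FPKM in SR86 SW, 992.1 to 2518 FPKM in SR86 FW and 222.4 to 540.9 FPKM in R1 FW, and their part in the results was not tested.

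SR86 FW1 stood apart from the other libraries in some marker loci. Of 4 loci taken as green-tissue markers, LOC_Os01g41710, a chlorophyll a/b binding protein of leaves, had 26.15 FPKM in this library and 0.88 to 6.91 FPKM in the other 8. The others set it apart unequally. LOC_Os12g17600 had 8.49 FPKM in SR86 FW1 and 0.85 to 2.74 FPKM elsewhere. LOC_Os09g17740 had 9.58 FPKM there, but SR86 SW2 was near it at 7.36 FPKM. LOC_Os12g19470 was low throughout, at 0.25 FPKM in SR86 FW1 and 0.11 to 0.24 FPKM elsewhere. The 4 loci together summed to 44.47 FPKM in SR86 FW1, against 7.68 and 9.36 FPKM in SR86 FW2 and SR86 FW3, 4.36 to 14.56 FPKM in SR86 SW and 3.8 to 6.13 FPKM in R1 FW. No green marker was at 0 in any library, and LOC_Os01g41710 was called as higher in SR86 FW than in R1 (log2 difference 1.93, limma adjusted p = 0.0436). This call was lost with no filter, with all 9 libraries in 1 fit and without any 1 of the R1 libraries. It was kept without SR86 FW1 (log2 difference 1.25, limma adjusted p = 0.00933). SR86 FW2 and SR86 FW3 had 5.05 and 6.91 FPKM of this locus, against 2.12 to 2.33 FPKM in R1 FW. The sum of 2 loci taken as root markers, LOC_Os02g51110 and LOC_Os03g01700, was 255.4 FPKM in SR86 FW1, the lowest of all libraries, against 377.2 and 819.1 FPKM in SR86 FW3 and SR86 FW2. The root markers were abundant in every library, at 722.5 to 916 FPKM in SR86 SW and 519.3 to 556.3 FPKM in R1 FW. The part of these markers in the HKT values was not tested, and the differences, the summed level and the overlaps of the HKT loci are given with and without SR86 FW1. By other measures SR86 FW3 differed more. Its LOC_Osm1 sum was 992.1 FPKM, against 2518 and 2279 FPKM in SR86 FW1 and SR86 FW2. Over all loci, 3822 were called between waters without SR86 FW3 and 983 without SR86 FW1, against 3012 with all libraries. Between strains these numbers were 4761, 3044 and 3261.

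HKT2;1 and HKT1;5 were the most abundant HKT transcripts of these roots, and together they made up 79.9% to 93.5% of the summed FPKM of the 5 loci in each library. Between them the order varied, HKT2;1 being higher in 6 of 9 libraries and HKT1;5 in SR86 SW3, SR86 FW2 and R1 FW3. HKT1;4 came next in all 9 libraries. HKT1;3 was below it in all 9 libraries and above HKT1;1 in 8, the exception being SR86 FW1. None of the 5 was an abundant transcript, since 76.0% of all features had a lower mean than HKT2;1 and 48.6% a lower mean than HKT1;1, with many features at 0. The summed level of the family was 20.22, 15.37 and 11.34 FPKM in SW-grown SR86, against 3.68, 11.77 and 11.96 FPKM for the FW-grown plants of that strain and 6.87, 6.26 and 5.93 FPKM in R1. SR86 SW3 lay below SR86 FW2 and SR86 FW3, so the waters overlapped, and the R1 libraries lay within the range of SR86 FW (exact two-sided permutation test of log2 sums, p = 0.3 between waters and p = 0.4 between strains, n = 3 each). The overlap of the strains came from SR86 FW1 alone. Without it the SR86 FW sums were above all R1 sums, and the log2 difference between strains was 0.85 in place of 0.33, while that between waters was 0.35 in place of 0.87 (exact permutation p = 0.2 and 0.6, 0.2 being the smallest possible). Without SR86 FW2 or SR86 FW3 the difference between strains was 0.08 and 0.07. Without SR86 SW3 the waters no longer overlapped, with a log2 difference of 1.07.

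**Figure D1:**
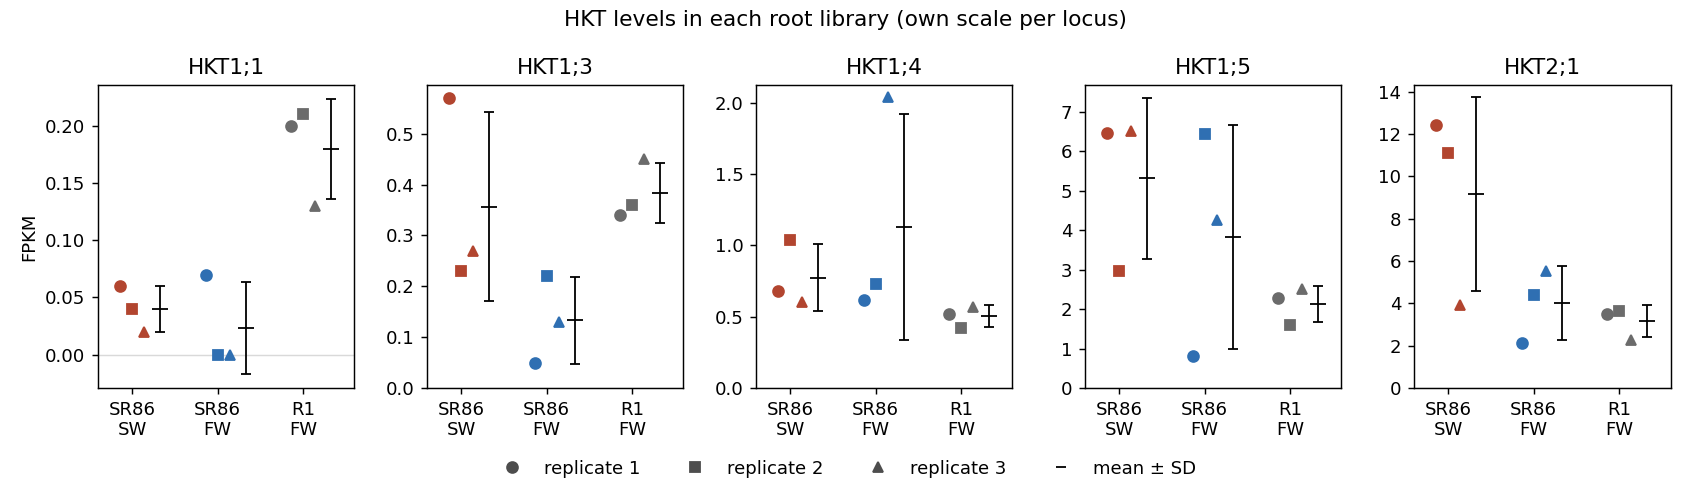
Levels of the 5 HKT loci in FPKM, 1 panel per locus with its own scale, for SR86 SW, SR86 FW and R1 FW. Symbols are single libraries by replicate number, and bars are the mean ± SD of 3 libraries. HKT2;1 reached 12.44 FPKM in SR86 SW1, whereas HKT1;1 stayed at or under 0.21 FPKM in every library.

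No HKT locus was called between SR86 in SW and FW. Of the 5 loci 3 passed the filter and 0 of them were called, where 12.7% of the 23718 loci tested were called (limma, 0 of the 3 at an unadjusted p under 0.05). For SR86 against R1, 3 were tested and 0 were called as well, where 14.1% of 23168 loci were called, again with 0 at an unadjusted p under 0.05. The call of 0 between strains depended on SR86 FW1, without which HKT1;5 passed both thresholds. In that fit 1 of the 3 HKT loci was called, where 3044 of all 23102 loci tested were called. The 95% intervals of the 3 loci were wide, and each reached past a 2-fold change in at least 1 direction.

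HKT2;1 is the class II member of the set and takes up sodium from outside into the root, above all in potassium-starved plants. It had 12.44, 11.10 and 3.93 FPKM in SW-grown SR86, against 2.13, 4.38 and 5.54 FPKM for the FW-grown plants of that strain and 3.52, 3.66 and 2.28 FPKM in R1. SR86 SW1 and SR86 SW2 were above every FW library, but SR86 SW3 lay among them. Means were 9.16 ± 4.58 FPKM in SW-grown SR86, 4.02 ± 1.73 FPKM in FW-grown SR86 and 3.15 ± 0.76 FPKM in R1 (SD, n = 3 each), and neighbouring groups in this order overlapped. The difference between SW and FW was 1.03 on the log2 scale (standard error 0.493, 95% interval -0.14 to 2.20, limma adjusted p = 0.165), the largest of the 3 HKT loci tested. Against this stands a median of 0.17 over all loci tested, and with quantile normalization or median-ratio size factors, which bring that median to 0.01 and 0.02, the HKT2;1 difference was 0.81 and 0.88. Without SR86 SW3 the SW and FW libraries no longer overlapped, the difference was 1.52 and the limma adjusted p was 0.0505. Without SR86 FW1 the difference was 0.68 (limma adjusted p = 0.376). Between the strains it was 0.25 (standard error 0.345, 95% interval -0.58 to 1.07, limma adjusted p = 0.608), or 0.59 without SR86 FW1 (limma adjusted p = 0.116).

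HKT1;5, also known as SKC1, withdraws sodium from the xylem in roots and so keeps it from the shoot. It had 6.47, 2.96 and 6.52 FPKM in SW-grown SR86, against 0.81, 6.44 and 4.25 FPKM for the FW-grown plants of that strain and 2.29, 1.61 and 2.50 FPKM in R1. SR86 FW1 held the lowest value of all 9 libraries, and each of the other 5 SR86 libraries was above every R1 library. Means were 5.32 ± 2.04 FPKM in SW-grown SR86, 3.83 ± 2.84 FPKM in FW-grown SR86 and 2.13 ± 0.465 FPKM in R1 (SD, n = 3 each). Its highest SR86 FW library was 7.95 times its lowest, and only 3.4% of loci (those averaging 0.5 FPKM or more in the 9 libraries) had a larger SD of log2 values within SR86 FW.

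The comparisons of this locus depended on SR86 FW1. Between the strains the difference was 0.43 on the log2 scale with all libraries (standard error 0.599, 95% interval -1.01 to 1.87, limma adjusted p = 0.605). Without SR86 FW1 it was 1.14 (standard error 0.251, 95% interval 0.50 to 1.78, limma adjusted p = 0.029), and the locus was called as higher in SR86. Without SR86 FW2 it was -0.06. Between SW and FW the difference was 0.66 (standard error 0.638, 95% interval -0.86 to 2.17, limma adjusted p = 0.474), and without SR86 FW1 it was -0.05 (limma adjusted p = 0.938). The SR86 FW libraries had the same order in this locus as in the root marker sum, with SR86 FW1 lowest and SR86 FW2 highest in both. The other groups did not share this. In R1 the orders were opposite, and SR86 SW3, highest of its group in HKT1;5, had the lowest root marker sum of that group. SR86 FW1 also had the fewest features above 0, 28684, and the highest green marker sum. In bulk roots, fewer cells that express the gene and less of its RNA per cell cannot be told apart.

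**Figure D2:**
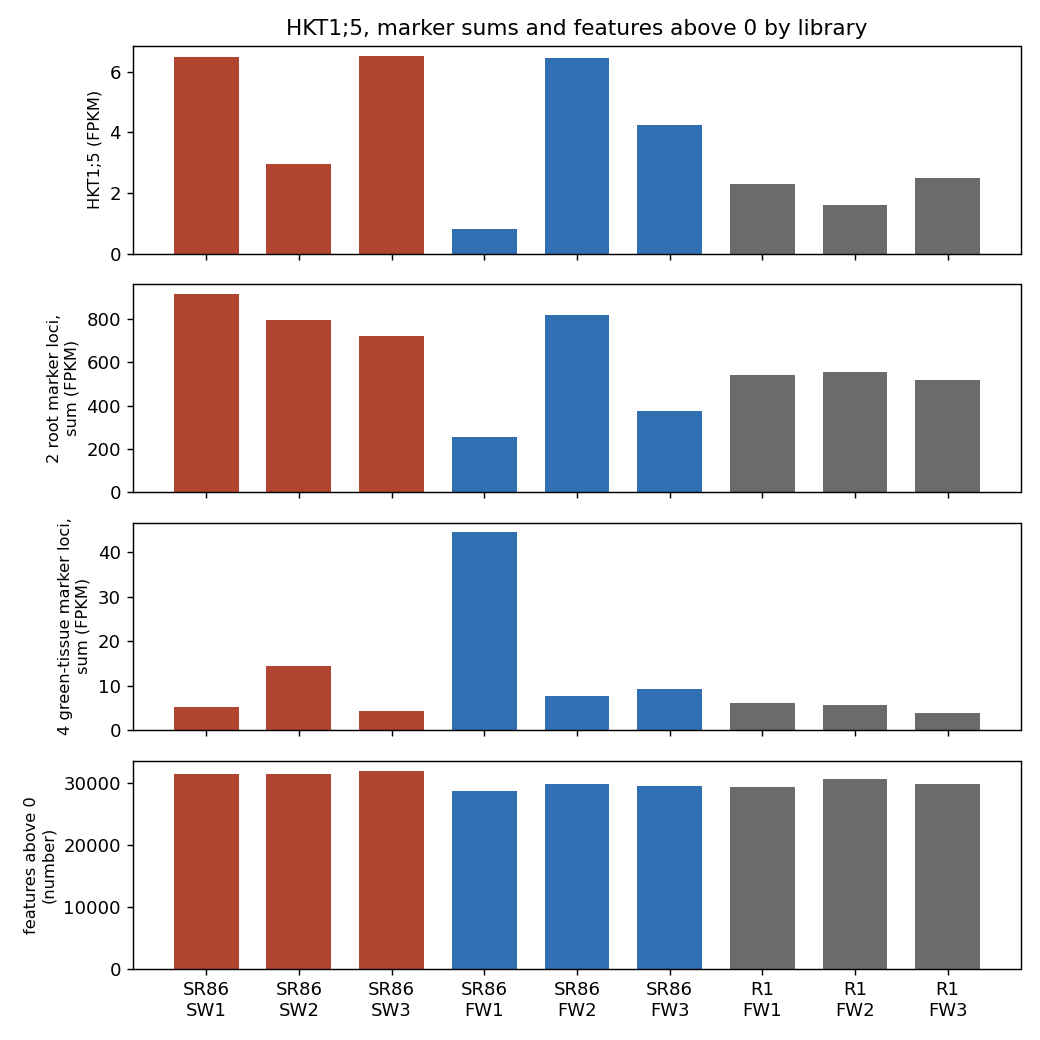
HKT1;5, the summed root markers and the summed green-tissue markers in FPKM, and the number of features above 0, as 1 bar per library. SR86 FW1 had the lowest HKT1;5 (0.81 FPKM), the lowest root marker sum (255.4 FPKM), the highest green marker sum (44.47 FPKM) and the fewest features above 0 (28684).

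**Figure D3:**
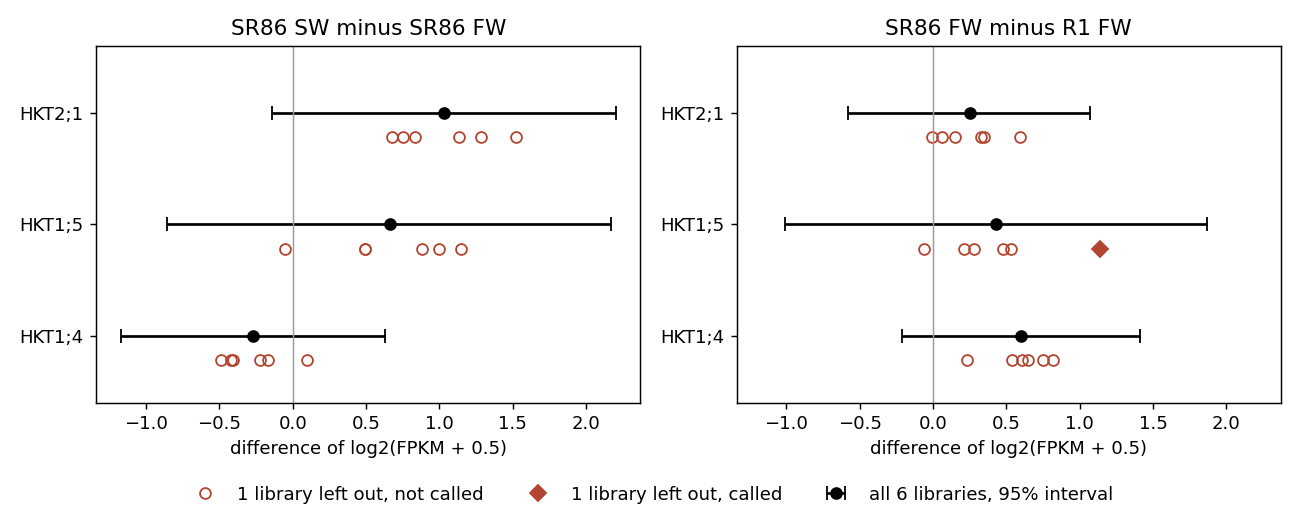
Differences of log2(FPKM + 0.5) for the 3 HKT loci tested, SR86 SW minus SR86 FW on the left and SR86 FW minus R1 FW on the right. Black points and bars are the limma estimate and its 95% interval from 6 libraries, open circles the estimates with 1 library left out, and the filled diamond the only such estimate that was called (HKT1;5 without SR86 FW1, 1.14).

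HKT1;4 is a sodium transporter best known from leaf sheaths and stems, where it also withdraws sodium from the xylem. It had 0.68, 1.04 and 0.60 FPKM in SW-grown SR86, against 0.62, 0.73 and 2.04 FPKM for the FW-grown plants of that strain and 0.52, 0.42 and 0.57 FPKM in R1. Every SR86 library was above every R1 library, in SW by as little as 0.60 against 0.57 FPKM, and SR86 FW3 was well above all the others. Means were 0.773 ± 0.234 FPKM in SW-grown SR86, 1.13 ± 0.79 FPKM in FW-grown SR86 and 0.503 ± 0.0764 FPKM in R1 (SD, n = 3 each). The difference between strains in FW was 0.60 on the log2 scale (standard error 0.337, 95% interval -0.21 to 1.41, limma adjusted p = 0.211), and without SR86 FW3 it was 0.23. Between SW and FW it was -0.27 (standard error 0.380, 95% interval -1.17 to 0.63, limma adjusted p = 0.629), and without SR86 FW3 it was 0.10. Without SR86 FW1 the differences were 0.82 between strains and -0.49 between waters, neither of them called.

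HKT1;3 is a class I member whose role in the plant is less well known. It was under the filter, with 0.57, 0.23 and 0.27 FPKM in SW-grown SR86, against 0.05, 0.22 and 0.13 FPKM for the FW-grown plants of that strain and 0.34, 0.36 and 0.45 FPKM in R1. The SR86 FW libraries were the 3 lowest of the 9, although SR86 SW2 exceeded SR86 FW2 by only 0.23 to 0.22 FPKM. SR86 SW and R1 FW overlapped. Means were 0.357 ± 0.186 FPKM in SW-grown SR86, 0.133 ± 0.085 FPKM in FW-grown SR86 and 0.383 ± 0.0586 FPKM in R1 (SD, n = 3 each). With no filter, the difference between strains was -0.49 on the log2 scale (standard error 0.131, limma adjusted p = 0.0495), short of 2-fold on this scale, which understates the change of low loci, and between SW and FW it was 0.42 (standard error 0.188, limma adjusted p = 0.20). Without SR86 FW1 they were -0.39 and 0.33.

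HKT1;1 is a sodium transporter known above all from leaves, where it limits the build-up of sodium. Its transcript was the lowest of the set by mean, at 0.06, 0.04 and 0.02 FPKM in SW-grown SR86, at 0.07 FPKM in SR86 FW1, and listed at 0 in SR86 FW2 and SR86 FW3. The R1 libraries had 0.20, 0.21 and 0.13 FPKM, above all 6 SR86 libraries. No upper limit is given for the libraries listed at 0, since the table holds neither their read numbers nor the transcript length. With no filter, the difference between strains in FW was -0.38 (standard error 0.0885, limma adjusted p = 0.0336), less than 2-fold on this scale. With a pseudocount of 0.1 in place of 0.5 it was -1.22, and for HKT1;3 -1.11. The HKT1;3 difference between waters was 0.96 with that pseudocount, and 0.25 either with a pseudocount of 1 or without SR86 SW1. In the fits with no filter 4.78% of loci were called between waters and 8.74% between strains, and 0 of the 5 HKT loci in either, although 2 of them were at an unadjusted p under 0.05 between strains. Between SW and FW the HKT1;1 difference was 0.05 (standard error 0.0706, limma adjusted p = 0.688). Without SR86 FW1 they were -0.44 between strains and 0.11 between waters.

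Over the 5 loci, the strains did not overlap in FW in 3, HKT1;1 and HKT1;3 being lower and HKT1;4 higher in SR86, where 39.6% of all loci above 0 did not overlap (21.7% lower and 17.9% higher in SR86). For low loci, with a mean of 0.1 to 0.5 FPKM, 19.8% were lower in SR86 without overlap. The waters did not overlap in 1 of the 5 loci, HKT1;3, higher in SW, against 33.1% of loci above 0, or 21.4% higher in SW. The exact permutation test (two-sided) of a single locus gave p = 0.1 for each of these, the lowest value that groups of 3 and 3 allow. Without SR86 FW1 the strains did not overlap in any of the 5 loci, with HKT2;1 and HKT1;5 also higher in SR86, where 49% of all loci above 0 did not overlap. The waters then did not overlap in 2 loci, HKT1;1 and HKT1;3, both higher in SW, where 40.5% of all loci did not. SR86 FW libraries served in both comparisons, so the values are not independent.

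HKT1;1 and HKT1;4 carry consecutive locus numbers, and the RefSeq gene table (assembly ASM3414082v1) places 1 other gene between them. The levels of the pair differed in every library and their order between strains was opposite, lower in SR86 for the first and higher for the second. In the same RefSeq table HKT2;1 lies next to HKT2;4 with 0 genes between them. The locus numbered just below HKT2;1, LOC_Os06g48800, had at most 0.06 FPKM in any library and was listed at 0 in all R1 libraries. Of 16 other loci next to the 5 in number, 2 to each side, only 2 passed the filter, both beside HKT1;3, and the others were not tested. Of these 2, LOC_Os02g07840, annotated as a bZIP transcription factor, was called between waters. It was lower in SW than in FW by a log2 difference of -1.30 (standard error 0.174, limma adjusted p = 0.0127), a call lost without SR86 SW1 or without SR86 FW2.

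The loci whose profile over the 9 libraries was nearest were sought for each HKT locus among those with a mean of at least 1 FPKM. Nearness was the mean absolute difference of log2(FPKM + 0.5) values, each locus centred on its own mean. For HKT1;5 the nearest was LOC_Os05g06660, with a mean difference of 0.157. It had 6.89, 3.16 and 7.11 FPKM in SW-grown SR86, against 1.02, 4.69 and 4.29 FPKM for the FW-grown plants and 2.26, 1.67 and 1.88 FPKM in R1, and so was low in the same SR86 FW library. For HKT2;1 it was LOC_Os01g48850, also at 0.157, with 31.64, 26.36 and 12.0 FPKM in SW-grown SR86, against 7.73, 10.58 and 11.28 FPKM for the FW-grown plants and 7.55, 9.18 and 5.95 FPKM in R1. For HKT1;4 it was LOC_Os03g20720, at 0.113, whose highest value, 7.79 FPKM, was also in SR86 FW3. These 3 were also the nearest with a pseudocount of 1. The second nearest were LOC_Os04g34330 (0.247), LOC_Os05g05690 (0.178) and LOC_Os01g46120 (0.12), in the same order. The nearest to the low loci, LOC_Os01g72820 (0.039) and LOC_Os01g64030 (0.044) for HKT1;1 and LOC_Os01g23610 (0.081) and LOC_Os02g26850 (0.081) for HKT1;3, changed with the pseudocount. This is a description of 9 libraries over 21249 or 21250 loci searched.

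Sodium and potassium balance in roots also rests on sodium efflux at the plasma membrane, proton exchangers of the vacuole and potassium channels and carriers. A list of 17 other loci was assembled for these functions, with earlier results of these data known. Its counts and medians beside those of all loci are therefore a description and no test of the list. Most of its loci are given here by number, as the sources used here pair few of them with names. Of the 15 tested between SR86 in SW and FW, 2 were called higher and 3 lower in SW, where 8.41% of all loci were called higher and 4.29% lower. By direction alone 9 of the 15 were higher in SW and 6 lower, where 59.7% of all loci tested were higher. The median log2 difference of the 15 was 0.41, against 0.17 over all loci tested. The largest rise was in LOC_Os01g45990, annotated as the potassium channel AKT1, which takes up potassium from the soil. It had 62.97, 30.48 and 65.81 FPKM in SW-grown SR86, against 5.01, 8.57 and 10.53 FPKM for the FW-grown plants and 14.26, 12.75 and 14.78 FPKM in R1. All SW libraries were thus above all FW libraries, with a log2 difference of 2.63 (standard error 0.375, limma adjusted p = 0.0136), a call lost without SR86 SW1 or without SR86 FW2.

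LOC_Os12g44360 also rose, with 22.21, 25.02 and 24.92 FPKM in SR86 SW and 4.60, 8.82 and 14.08 FPKM in SR86 FW (log2 difference 1.47, limma adjusted p = 0.0368). SR86 FW1 was again the lowest library. This call was lost with no filter (limma adjusted p = 0.0632) and without any 1 library other than SR86 FW3. With a library left out the difference ran from 1.07 without SR86 FW1 to 1.83 without SR86 FW3. LOC_Os03g37840, annotated as a potassium transporter, fell by 1.87 on the log2 scale to 2.94 ± 1.45 FPKM in SW, against 12.0 ± 5.01 FPKM in FW (SD, n = 3 each, limma adjusted p = 0.03), a call lost with no filter (limma adjusted p = 0.0531) and likewise without any 1 library other than SR86 FW3. LOC_Os06g21360, annotated as a monovalent cation to proton antiporter, also fell by 1.87, to 0.13 ± 0.168 FPKM in SW, against 1.81 ± 0.641 FPKM in FW (SD, n = 3 each, limma adjusted p = 0.02), a call lost without SR86 SW1, SR86 FW1 or SR86 FW2. As this locus is near 0 in SW, its difference depended on the pseudocount, being -3.26 with 0.1 and -1.30 with 1. LOC_Os05g45810, annotated as calcineurin B, a calcium-binding protein, fell by 1.00 to 2.76 ± 0.208 FPKM, against 6.13 ± 1.39 FPKM (SD, n = 3 each, limma adjusted p = 0.0322), and its call was lost when the pseudocount was 1, when no filter was set, with a replicate block (limma adjusted p = 0.0598) and without any 1 of the 6 libraries. The number of list loci called between waters was 0 without SR86 SW1 or without SR86 FW2, and 1 without SR86 FW1. It was 2 without SR86 SW2 or SR86 SW3, and 5 without SR86 FW3. Calls over all loci also moved in these fits. They were 60 of 23553 loci without SR86 SW1, 358 of 23752 without SR86 FW2 and 983 of 23757 without SR86 FW1. Without SR86 SW2, SR86 SW3 and SR86 FW3 they were 623 of 23525, 3090 of 23660 and 3822 of 23741.

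In the comparison of the strains, 15 of the list were tested. Of these 1 was called higher and 2 were called lower in SR86, where 6.85% of all loci were called higher and 7.22% lower. By direction alone 4 were higher in SR86 and 11 lower, where 47.9% of all loci tested were higher. The median log2 difference was -0.25, against -0.03 over all loci tested. LOC_Os06g21360 was higher, at 1.78, 2.47 and 1.19 FPKM in SR86 FW against 0, 0.08 and 0 FPKM in R1 FW (log2 difference 2.1, limma adjusted p = 0.00267). This difference was 3.92 with a pseudocount of 0.1 and 1.43 with 1, and was called in both. The 2 potassium transporters LOC_Os03g37930 and LOC_Os01g70490 were lower in SR86, with log2 differences of -2.72 (limma adjusted p = 0.00936) and -1.84 (limma adjusted p = 0.00585). LOC_Os01g70490 had 1.67, 0.89 and 2.25 FPKM in SR86 FW and 6.54, 6.05 and 7.81 FPKM in R1 FW, and its values in SR86 SW, 0.97, 0.87 and 0.78 FPKM, were lower still than in R1. The number called was 5 without SR86 FW3, where 4761 of all 23084 loci tested were called. LOC_Os01g34850 of the list was under the filter in both comparisons, and like HKT1;1 it was highest in R1, with 0, 0 and 0.02 FPKM in SW-grown SR86, against 0.06, 0.12 and 0 FPKM for the FW-grown plants and 0.21, 0.35 and 0.28 FPKM in R1.

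**Figure D4:**
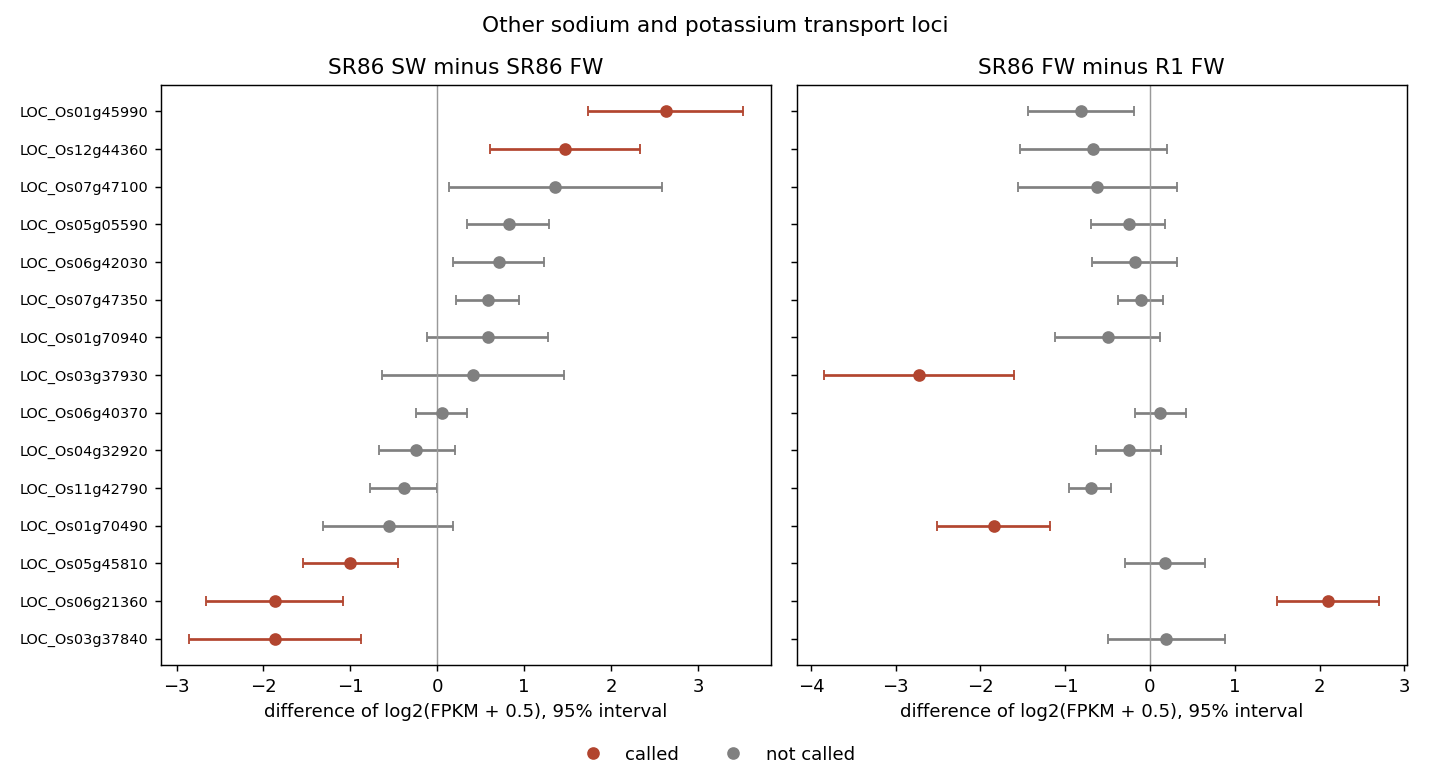
Differences of log2(FPKM + 0.5) with limma 95% intervals for the 15 tested loci of the sodium and potassium transport list, SR86 SW minus SR86 FW on the left and SR86 FW minus R1 FW on the right, with called loci in red. LOC_Os01g45990 (2.63) was the largest rise in SW and LOC_Os03g37930 (-2.72) the lowest in SR86 against R1.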

How the data were processed

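Root RNA of 9 libraries was profiled with a stranded mRNA kit. Per the paper, the authors trimmed reads (Trimmomatic), aligned those of both strains to MSU6 transcripts (Bowtie2) and quantified them by RSEM. RSEM divides reads that similar transcripts share, so related loci are uncertain. The paper reports many variants of SR86 against a japonica reference genome. Whether reads of the strains aligned equally well at the HKT loci was not tested, which limits the comparison of strains. The deposited FPKM values have 2 decimals and 1 column per library, with 0 columns unused. The authors' edgeR test needs counts and was not run here. The paper also states a TMM normalization (trimmed mean of M-values), and whether the deposited values carry it is not known. Their sums per library were 622262 to 647564 in SR86 SW, 705081 to 726598 in SR86 FW and 641897 to 672686 in R1 FW. The values were not rescaled for the main fits. They were tested with limma 3.58.1 (R 4.3.3, variance trend) on log2(FPKM + 0.5) over loci with a mean of 0.5 FPKM or more. The limma step was tested on simulated data. The planted changes were larger, and their starting levels higher, than those of the HKT loci, so power for these loci was not measured. Relative depth was sought from the steps between low values, but on simulated data this erred by a factor of 2 in many libraries, and it was not used. Other settings were a pseudocount of 0.1 or 1, a filter at 1 or none, quantile or median-ratio scaling, a fit of all 9 libraries, a replicate block, and leaving out each library. Named loci were the 5 HKT loci, called loci of the transport list, called neighbours in locus number (2 to each side) and the 2 nearest profiles per HKT locus. LOC_Os01g34850, LOC_Os06g48800 and LOC_Os01g41710 were singled out after their values were seen. Members and lists were chosen with earlier results of these data known. Annotations come from the paper's tables, of which no value was used. P-values cover the spread between these libraries. Tables and plots were made with matplotlib 3.10.9, scipy 1.17.1, numpy 2.4.6 and pandas 2.3.3 in Python 3.11.15.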

Additional observations from a re-analysis of the deposited data

How the results depend on the processing

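With no library left out, each of the 46 refits of the tested HKT loci kept its direction and stayed uncalled. Of 36 refits with a library left out, 4 turned direction and 1 was called. Left-out values ran from 0.68 to 1.52 (HKT2;1) and -0.05 to 1.15 (HKT1;5) for SW against FW, and from -0.01 to 0.59 and -0.06 to 1.14 for SR86 against R1. For HKT1;4 they ran from -0.49 to 0.10 and from 0.23 to 0.82. HKT loci called numbered 0 to 1 between strains and 0 in each left-out fit between waters. Over all loci, 3012 were called between waters and 3261 between strains, and 60 to 3822 and 1646 to 4761 with a library left out. Without a filter 1804 were called between waters. The list of 17 loci had 5 called between waters, 2 without a filter and 0 to 5 with a library left out, and 3 between strains (3 to 5). Of the calls between waters 66.2% were higher, against 46.0% with quantile normalization and 51.7% with median-ratio size factors. With a replicate block 2048 and 3489 loci were called and 0 HKT loci in either comparison. Whether replicate numbers pair the libraries cannot be settled from so few deviations per group. Deviations of same-numbered libraries correlated at -0.06, 0.01 and 0.15 between waters and -0.03, 0.22 and 0.26 between strains. SR86 FW2 and SR86 FW3 correlated best with their own number in R1, and SR86 FW1 did not. Between waters SR86 SW3 correlated best with its own number, and SR86 SW1 and SR86 SW2 did not. Of the 10 nearest profiles 3 were kept with a pseudocount of 1. The values with a library left out for the HKT sum, 0.35 to 1.14 between waters and 0.07 to 0.85 between strains, were chosen after seeing the data, as were the overlaps without SR86 FW1. The table gives no read numbers, so the counting error of the low HKT1;1 and HKT1;3 values is not given.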
